A study of Mus musculus with 2 samples.

Results

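Lrrk2, Pink1, Park7, Vps35, Atp13a2, Tmem175 and Fbxo7 are mouse counterparts of genes in which inherited or common variants are linked to Parkinson's disease. They were taken by symbol, without regard to their values, and all 7 members were found among the 32285 genes counted. Their UMIs (unique molecular identifiers, 1 for each captured transcript) were described across the cell types of a brain cell preparation and between 2 droplet libraries. The library labelled WT came from wild-type C57BL/6J mice and the library labelled KO from CD200R1-/- mice of that background. CD200R1 is an inhibitory receptor of myeloid cells. All mice were untreated and 18 months old, and the labels give them no disease model. Brains were perfused and dissociated, and CD11b+ cells were taken with magnetic beads and loaded on the 10x Chromium 3′ v3.1 platform. CD11b is carried by microglia, macrophages, monocytes and neutrophils. The preparation also held the other cell types below, and whether any of these cells carried CD11b was not examined. There is 1 library per genotype, the number of mice in each is not stated, and WT and KO below name the libraries by their labels. No difference between the genotypes therefore has a replicate check, no p-value is given, and all intervals are 95% and cover counting error only.

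The 7 genes act in 3 connected systems. PINK1 is a kinase that builds up on damaged mitochondria and marks them for autophagy (mitophagy), Park7 encodes DJ-1, a protein that protects cells from oxidative stress, and FBXO7 is the substrate-binding subunit of a ubiquitin ligase that also takes part in mitophagy and proteasome regulation. VPS35 is the core of the retromer, which returns cargo from endosomes, and LRRK2 is a kinase that phosphorylates Rab GTPases on endosomes and lysosomes. ATP13A2 exports polyamines from lysosomes and TMEM175 is a lysosomal potassium and proton channel, and the heavy use of lysosomes by phagocytes is one reason these genes are studied in brain myeloid cells.

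The promoters of 3 members are shown: that of Lrrk2, which had the widest range over cell types, and those of Pink1 and Park7, whose levels followed each other most closely. The sequences are RefSeq's, for the build GRCm38.p6, and cover the 250 bases before the start that RefSeq's table gives, 5′ to 3′ on the gene's own strand. Capitals mark every match to 6 motifs searched on both strands. The matches found in the 3 windows were to GGGCGG (the GC box) and to the NRF1 palindrome (GCGC, any base, then TGCGC), and they do not overlap. The TATA box (TATAAA), the E-box of lysosomal gene regulators (CACGTG), the ETS core (CCGGAAG) and a paired GAAA motif (with any 2 bases between the pair) were searched too.
Lrrk2, chr15:91672974-91673223, plus strand: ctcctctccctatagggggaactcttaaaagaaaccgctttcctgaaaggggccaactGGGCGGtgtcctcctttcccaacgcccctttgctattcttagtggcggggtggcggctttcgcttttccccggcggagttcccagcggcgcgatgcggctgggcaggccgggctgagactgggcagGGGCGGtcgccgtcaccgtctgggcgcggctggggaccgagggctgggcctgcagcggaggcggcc
Pink1, chr4:138326297-138326546, minus strand: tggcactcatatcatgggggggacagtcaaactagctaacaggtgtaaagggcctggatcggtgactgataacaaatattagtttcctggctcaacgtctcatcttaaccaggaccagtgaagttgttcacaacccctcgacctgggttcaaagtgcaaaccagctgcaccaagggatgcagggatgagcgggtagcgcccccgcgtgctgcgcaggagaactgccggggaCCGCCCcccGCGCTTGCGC
Park7, chr4:150909922-150910171, minus strand: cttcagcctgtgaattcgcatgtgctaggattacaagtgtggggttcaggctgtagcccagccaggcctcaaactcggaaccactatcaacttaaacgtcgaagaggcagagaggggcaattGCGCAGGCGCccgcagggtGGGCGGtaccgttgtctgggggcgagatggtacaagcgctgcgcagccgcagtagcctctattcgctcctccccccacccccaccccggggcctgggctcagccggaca
Lrrk2 held 2 GC boxes, 192 to 187 and 66 to 61 bases before the start, and no NRF1 palindrome. Pink1 and Park7 each held 1 of both motifs, with the palindrome 10 to 1 bases before the start of Pink1 and, on the opposite strand, 128 to 119 bases before the start of Park7. Of 32851 RefSeq windows of that length, 32.7% hold GGGCGG and 3.74% hold the NRF1 palindrome, while TATAAA is in 12.4%, CACGTG in 6.02%, CCGGAAG in 6.91% and the paired GAAA motif in 2.98%. Fbxo7, whose expression pattern was unlike that of Pink1 and Park7, held the NRF1 palindrome as well. GENCODE models of some of these genes reach into the windows, and that of Park7 begins upstream, at 150914437, so its whole window lies inside the GENCODE gene. Promoter windows were found for 6 of the 7 members. A match describes letters only and is not evidence of binding.

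By GENCODE vM21 on GRCm38, Lrrk2 (ENSMUSG00000036273) spans chromosome 15, 91673175 to 91816120 on the plus strand, with up to 51 exons. Pink1 (ENSMUSG00000028756, 138313409 to 138326307), Park7 (ENSMUSG00000028964, 150897133 to 150914437) and Atp13a2 (ENSMUSG00000036622, 140986873 to 141007330) all lie on chromosome 4, the first pair on the minus strand and Atp13a2 on the plus strand. Vps35 (ENSMUSG00000031696) is at 85260392 to 85299802 on the minus strand of chromosome 8. Tmem175 (ENSMUSG00000013495) is at 108629770 to 108648782 on chromosome 5 and Fbxo7 (ENSMUSG00000001786) at 86021972 to 86051873 on chromosome 10, both on the plus strand. The UMIs are 3′ tags that name a gene and do not tell its transcripts apart.

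The libraries labelled WT and KO held 18228 and 19159 barcodes with medians of 3596.5 and 3975 UMIs, and 16460 and 17064 cells were kept. Cd200r1, the targeted gene, had 1488 UMIs (12.8 CPM) among kept WT cells and 1411 (12.0 CPM) among kept KO cells, for a ratio of 0.943 (0.877 to 1.02). It was at 23.1 and 21.1 CPM in microglia, a ratio of 0.914 (0.834 to 1.00), and at 36.9 and 23.7 CPM in CNS-associated macrophages, a ratio of 0.642 (0.527 to 0.781). The deleted exons are not given, and 3′ tags outside the deleted part check nothing, so the genotypes stand as labelled and every direction below rests on those labels. The cells fell into 29 clusters, and the 13 cell classes that reached 50 cells in both libraries were compared. Every class name below means "like" that cell type by its marker genes. Unnamed clusters held 39.0% of kept cells labelled WT and 32.6% of those labelled KO. Doublet calls were far below the rate expected at this loading (0.849% and 3.37% against 13.3% and 14.1%), so mixed cells remain, and 103 barcodes occurred in both libraries, of which 10 were of the same named class in both. A level below is CPM, the UMIs of a gene per 1000000 UMIs of all cells of a class, and levels are compared between classes for 1 gene, never between genes.

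Of the compared classes, B cells, neutrophils and monocytes had the highest Lrrk2 and microglia the lowest in both libraries. The microglia class, 3525 and 4178 cells in WT and KO, held 19 Lrrk2 UMIs among 40404016 in the library labelled WT and 35 among 44066612 in the library labelled KO, or 0.470 CPM (0.283 to 0.734) and 0.794 CPM (0.553 to 1.10). B cells stood at 177 CPM (152 to 205) in WT and 51.8 CPM (33.2 to 77.0) in KO. Neutrophils stood at 75.0 CPM (64.8 to 86.2) and 121 CPM (101 to 143). Among the 13 compared classes these were the highest: B cells exceeded neutrophils 2.36-fold (1.92 to 2.90) in WT, while neutrophils exceeded B cells 2.33-fold (1.503 to 3.77) in KO. Monocytes followed with 51.2 CPM (40.6 to 63.9) and 27.3 CPM (19.3 to 37.4). In KO, monocytes did not differ beyond their interval from the next class, astrocytes (ratio 1.10, 0.725 to 1.65). The highest class exceeded microglia 376-fold (234 to 639) in WT and 152-fold (104 to 227) in KO.

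The share of cells with a Lrrk2 UMI followed the same order in WT. Of the cells labelled WT, 73 of 151 B cells (48.3%, 40.1% to 56.6%) and 76 of 178 neutrophils (42.7%, 35.3% to 50.3%) had one, against 15 of 3525 microglia (0.426%, 0.238% to 0.701%). Microglia were the deeper cells, with a median of 8298 UMIs against 4899 in B cells and 6530.5 in neutrophils, so their share, which free RNA can give, was not low for want of depth. With each cell thinned to 1000 UMIs the shares labelled WT were 18.9% in B cells, 11.05% in neutrophils, 6.73% in monocytes and 0.0253% in microglia. In the library labelled KO they were 5.38%, 16.9%, 4.0% and 0.152% in that order. Of the 19 microglial UMIs in WT, 8 lay in 51 cells led by macrophage markers, at 5.86 CPM. Microglia without a named state held 0.335 CPM in WT and 0.695 CPM in KO.

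**Figure D1:**
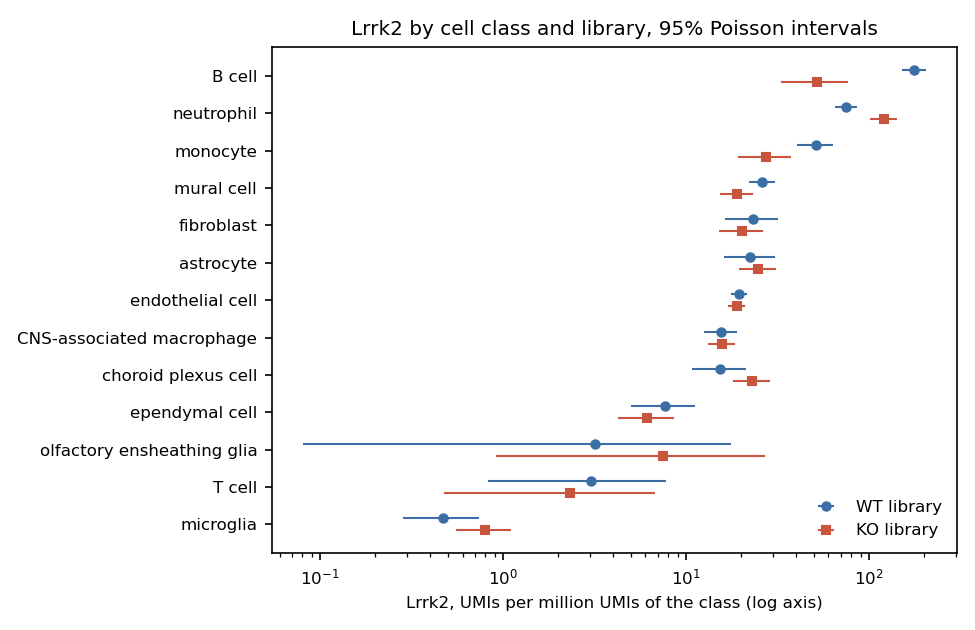
Lrrk2 level in 13 cell classes, in CPM on a log axis, ordered by the WT library. Circles are the WT library and squares the KO library, with 95% Poisson intervals that cover counting error only. Microglia lie at 0.470 and 0.794 CPM, B cells at 177 and 51.8 CPM, and the mural, fibroblast, astrocyte, endothelial and choroid plexus classes between 15.3 and 26.1 CPM in WT.

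Vascular cells, fibroblasts, astrocytes and choroid plexus cells formed a middle tier of Lrrk2, while olfactory ensheathing glia had 1 and 2 UMIs (3.18 and 7.52 CPM). Mural cells (pericytes and smooth muscle cells around vessels) had 26.1 and 19.0 CPM in WT and KO, fibroblasts 23.1 and 20.3, astrocytes 22.5 and 24.7, endothelial cells 19.6 and 18.9, and choroid plexus cells 15.3 and 23.0. Neighbours within this tier did not differ beyond their counting intervals, with 1 exception: endothelial cells exceeded the next class, CNS-associated macrophages, 1.26-fold (1.00 to 1.60) in WT. Ependymal cells, the ciliated lining of the ventricles, were at 7.64 and 6.13 CPM, and choroid plexus cells exceeded them 2.01-fold (1.18 to 3.47) in WT. T cells had 4 and 3 UMIs (3.03 and 2.31 CPM), and their thinned shares were 0.193% and 0.346% against 0.0253% and 0.152% in microglia. They exceeded microglia 6.45-fold (1.60 to 19.4) in WT, on those few UMIs, and in KO the ratio of 2.91 (0.572 to 9.23) includes 1. Fibroblasts were split, since cluster 12, led by Dcn and Lama1, had 40.04 and 37.1 CPM, while cluster 27, led by Prg4 and Igfbp6, had 5.04 and 5.70 CPM. The ratio between these clusters was 7.94 (2.83 to 30.8) in WT and 6.51 (3.04 to 15.98) in KO.

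CNS-associated macrophages, which sit at vessels and in the meninges, had 15.5 and 15.7 CPM of Lrrk2 as a class, but these UMIs were held by few of the cells. The cluster led by MHC class II genes (H2-Eb1, H2-Ab1) had 29.5 and 29.9 CPM. The cluster led by Mrc1, Cd163 and Lyve1 had 2.58 and 0.9746 CPM, from 8 and 4 UMIs. The ratio was 11.4 (5.53 to 27.3) in WT and 30.7 (11.7 to 114) in KO. Within the class, a sub-cluster of 24 and 37 cells led by Clec9a, Itgae and Xcr1, with 9 dendritic cell markers, held 58 of the 93 Lrrk2 UMIs labelled WT and 88 of the 131 labelled KO. Its level was 163 CPM in WT and 195 CPM in KO. Without this and the other sub-clusters led by markers of another class, the macrophages had 7.40 CPM (19 UMIs in 417 cells) and 7.83 CPM (27 UMIs in 593 cells).

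B cells were mixed in the same way, as sub-clusters made without Lrrk2 showed. Sub-cluster 0, led by Satb1, Ighd, Fcer2a and Cr2, genes of mature B cells, had 331 CPM in 62 WT cells and 251 CPM in 12 KO cells. Sub-cluster 1, led by Fcrl5, S100a6 and Cd80, had 227 CPM in 55 cells and 66.8 CPM in 27 cells. The sub-cluster led by Vpreb3, Cecr2 and Il7r had 0 Lrrk2 UMIs in its 6 and 23 cells, and the one led by immunoglobulin genes and Derl3, a plasma cell pattern, had 0 and 1 UMI in 7 and 9 cells. Lrrk2 was thus present in the sub-clusters with mature B cell genes and at or near 0 UMIs in those with Vpreb3 or plasma cell genes, although these hold few cells.

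Among neutrophils, the sub-cluster led by Chil3, Camp and Ltf, genes of granules made before maturity, had 238 and 179 CPM in 15 and 18 cells. The sub-cluster led by Krt83, Upp1 and Retnlg had 255 CPM in 25 WT cells and only 3 cells in KO. A sub-cluster led by the interferon-induced genes Ifit3b, Rsad2 and Ifit3 had 447 CPM (52 UMIs in 27 cells) in KO and 0 UMIs in the 2 cells it had in WT. Neutrophils with microglial marker RNA had 30.2 and 48.9 CPM. Among monocytes, the sub-cluster led by Cd36, Ear2 and Ace, genes of the non-classical type, had 138 CPM in 62 cells and 48.1 CPM in 56 cells, and the one led by Thbs1, Vcan and Ccr2 had 39.9 and 40.4 CPM from 5 UMIs each.

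**Figure D2:**
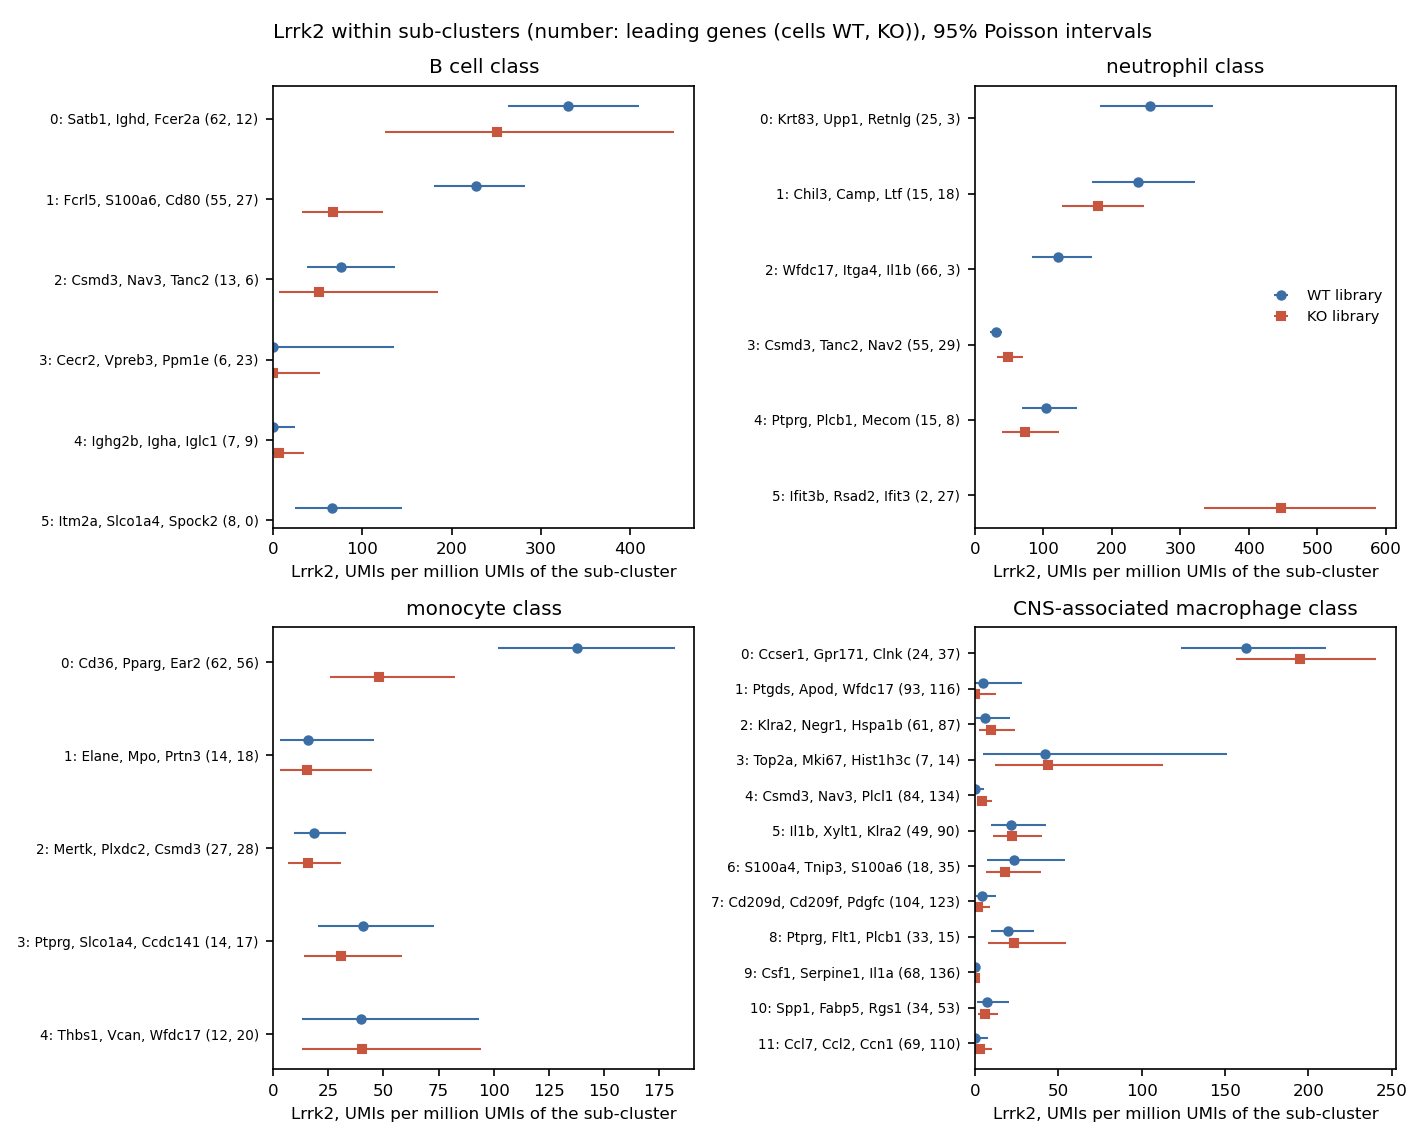
Lrrk2 level in sub-clusters of 4 classes, in CPM, with leading genes and the number of WT and KO cells on the vertical axis. Circles are WT, squares KO, bars 95% Poisson intervals, and a point is drawn only for at least 5 cells. In the macrophage panel sub-cluster 0, which Clec9a and Xcr1 also lead, stands at 163 and 195 CPM, far from the rest.

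Pink1 and Park7, the mitochondrial kinase and the redox protein, were highest in ependymal or choroid plexus cells among the 13 compared classes and lower in most immune classes. Pink1 stood at 169 CPM (156 to 184) and 173 CPM (162 to 185) in ependymal cells of WT and KO. Olfactory ensheathing glia, at 165 and 82.7 CPM, were not separated from ependymal cells in WT (ratio 1.03, 0.771 to 1.39). Oligodendrocytes, too few to be compared, had 156 CPM (107 to 219) and 220 CPM (163 to 290). Pink1 was at 120 and 99.3 CPM in astrocytes, 86.8 and 92.9 in mural cells, 86.5 and 87.8 in endothelial cells, 70.0 and 66.1 in fibroblasts, and 66.5 and 71.8 in choroid plexus cells. The endothelial class leaves out cluster 11, which had 12 endothelial markers but stayed unnamed. Pink1 was at 120 and 123 CPM in that cluster. All 6 immune classes lay between 33.1 and 41.0 CPM in WT and between 36.7 and 53.1 CPM in KO, with microglia at 33.2 and 38.6 CPM. No neighbours in the order of those immune classes differed beyond their intervals in either library. The step from the lowest other class down to the highest immune class was 1.62-fold (1.32 to 1.99) in WT and 1.24-fold (0.936 to 1.67) in KO, where the interval includes 1.

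Park7 was at 321 CPM (302 to 341) in ependymal cells of WT and 343 CPM (327 to 359) in KO, and at 326 CPM (303 to 350) and 252 CPM (235 to 269) in choroid plexus cells. Ependymal and choroid plexus cells did not differ beyond their interval in WT, while ependymal cells were the highest class in KO, 1.36-fold (1.24 to 1.49) above fibroblasts. T cells, at 215 and 219 CPM, were above the other immune classes, which lay between 116 CPM (neutrophils) and 164 CPM (B cells) in WT and between 147 and 182 CPM in KO. Over 13 classes in 2 libraries (26 points, which share libraries and depth) the log2 levels of Pink1 and Park7 correlated at r = 0.81. Among the 21 pairs of members this was the highest value, and the lowest was that of Park7 and Atp13a2 at -0.68. The 3 other genes most like Pink1 by this measure, out of 12513, were Cnn3, Hdhd2 and Tuba1a (0.93, 0.93 and 0.92), and those most like Park7 were Bex3, Swi5 and Ppa2 (0.94, 0.91 and 0.91).

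Vps35, the retromer core, had one of the narrower ranges over cell types, with Park7 and Tmem175. Its level was 123 and 118 CPM in ependymal cells and between 84.9 and 98.6 CPM in 8 classes of WT, microglia (94.6 CPM in WT, 95.4 in KO) included. Olfactory ensheathing glia had 134 CPM in WT and 105 CPM in KO, from 42 and 28 UMIs. T cells (48.5 and 58.5 CPM), B cells (58.0 and 45.3) and choroid plexus cells (67.4 and 53.3) were the lowest. The highest class exceeded the lowest 2.75-fold (1.82 to 4.13) in WT and 2.60-fold (1.69 to 4.24) in KO. The genes most like it were Mtrf1, Stard3nl and Nagk (0.89, 0.83 and 0.83).

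Atp13a2, the polyamine exporter, was highest in CNS-associated macrophages, with 48.5 CPM (43.1 to 54.4) in WT and 37.8 CPM (33.8 to 42.2) in KO, followed by microglia with 35.8 and 35.2 CPM. The macrophages exceeded microglia 1.35-fold (1.19 to 1.54) in WT, and in KO these neighbours did not differ beyond their interval. Neutrophils had 29.1 and 31.3 CPM, monocytes 29.8 and 25.8, and astrocytes 24.1 and 25.1. Endothelial cells had 14.57 and 14.96 CPM, T cells 9.10 and 14.6, and choroid plexus cells 13.6 and 6.18. Between the clusters of the macrophage class the order was the reverse of that of Lrrk2, most of whose UMIs lay in the sub-cluster with dendritic cell markers. The clusters were compared whole, with the sub-clusters led by markers of another class left in, and the part of those cells was not tested. The Mrc1 and Cd163 cluster had 60.7 and 43.4 CPM against 35.4 and 32.5 CPM in the MHC class II cluster, a ratio of 1.72 (1.34 to 2.21) in WT and 1.34 (1.06 to 1.68) in KO. The genes most like Atp13a2 were P2rx4, itself an ion channel found on lysosomes, Fbxw11 and Fnip1 (0.88, 0.87 and 0.87).

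Tmem175, the lysosomal channel, was at 43.0 CPM (41.0 to 45.1) and 41.8 CPM (39.9 to 43.7) in microglia, the highest class in both libraries but not separated from the next. With other settings the highest class in WT was CNS-associated macrophages (resolution 2, own-marker cells) or ependymal cells (stricter filter, thinned cells), and in KO it was astrocytes with the stricter filter. Ependymal cells (41.7 and 37.0 CPM) did not differ from microglia beyond their interval in WT. Macrophages had 35.6 and 33.6 CPM, astrocytes 31.8 and 38.1, and fibroblasts 27.4 and 38.2. Monocytes (18.2 and 15.8 CPM), endothelial cells (19.7 and 17.3) and choroid plexus cells (20.9 and 16.2) were at the low end. The ependymal value rests on clusters of unlike depth: the shallow one (median under 1000 UMIs) had 61.4 CPM in WT and 22.2 in KO from 26 and 23 UMIs, and the deep one 38.9 and 40.5 CPM from 116 and 176 UMIs. No pair of neighbours in the whole order of Tmem175 differed beyond its interval in either library. Eri3, Sncaip and Pias2 were most like it (0.85, 0.82 and 0.80).

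Fbxo7, the ubiquitin ligase subunit, was highest in endothelial cells among the compared classes, at 49.7 CPM (46.7 to 52.9) in WT and 43.3 CPM (40.1 to 46.5) in KO. Monocytes had 38.9 and 24.4 CPM, fibroblasts 34.1 and 20.3, astrocytes 31.2 and 28.1, microglia 21.2 and 22.8, and mural cells 15.96 and 14.5. Ependymal and choroid plexus cells, the highest for Park7, were near the bottom with 13.5 and 14.3 CPM and 11.9 and 12.4 CPM. Levels higher still were found outside the compared classes, in oligodendrocytes (151 and 79.2 CPM, from 28 and 65 cells) and in vessel cells. Cluster 11, led by Gkn3, Bmx and Sema3g, genes of arterial endothelium, with 12 endothelial markers, had 101 CPM (94.5 to 108) and 75.4 CPM (68.8 to 82.4). It exceeded endothelial cluster 8 by 1.92-fold (1.73 to 2.14) in WT and 1.56-fold (1.37 to 1.77) in KO, and it was left without a name because Stmn2, a marker on the neuron list, is among its leading genes. The genes most like Fbxo7 were Tbc1d4, Arhgap31 and Parvb (0.91, 0.87 and 0.83).

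For Lrrk2 the most alike genes were Slpi, Ckap4 and Ankrd33b (0.81, 0.76 and 0.75), a lower likeness than any other member reached. Slpi, a protease inhibitor of neutrophils, had 794 and 500.5 CPM in B cells and 538 and 486 CPM in neutrophils, but 0.446 and 0.272 CPM in microglia. Slpi is also among the leading genes of the plasma cell sub-cluster, where Lrrk2 was at 0 and 1 UMI.

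**Figure D3:**
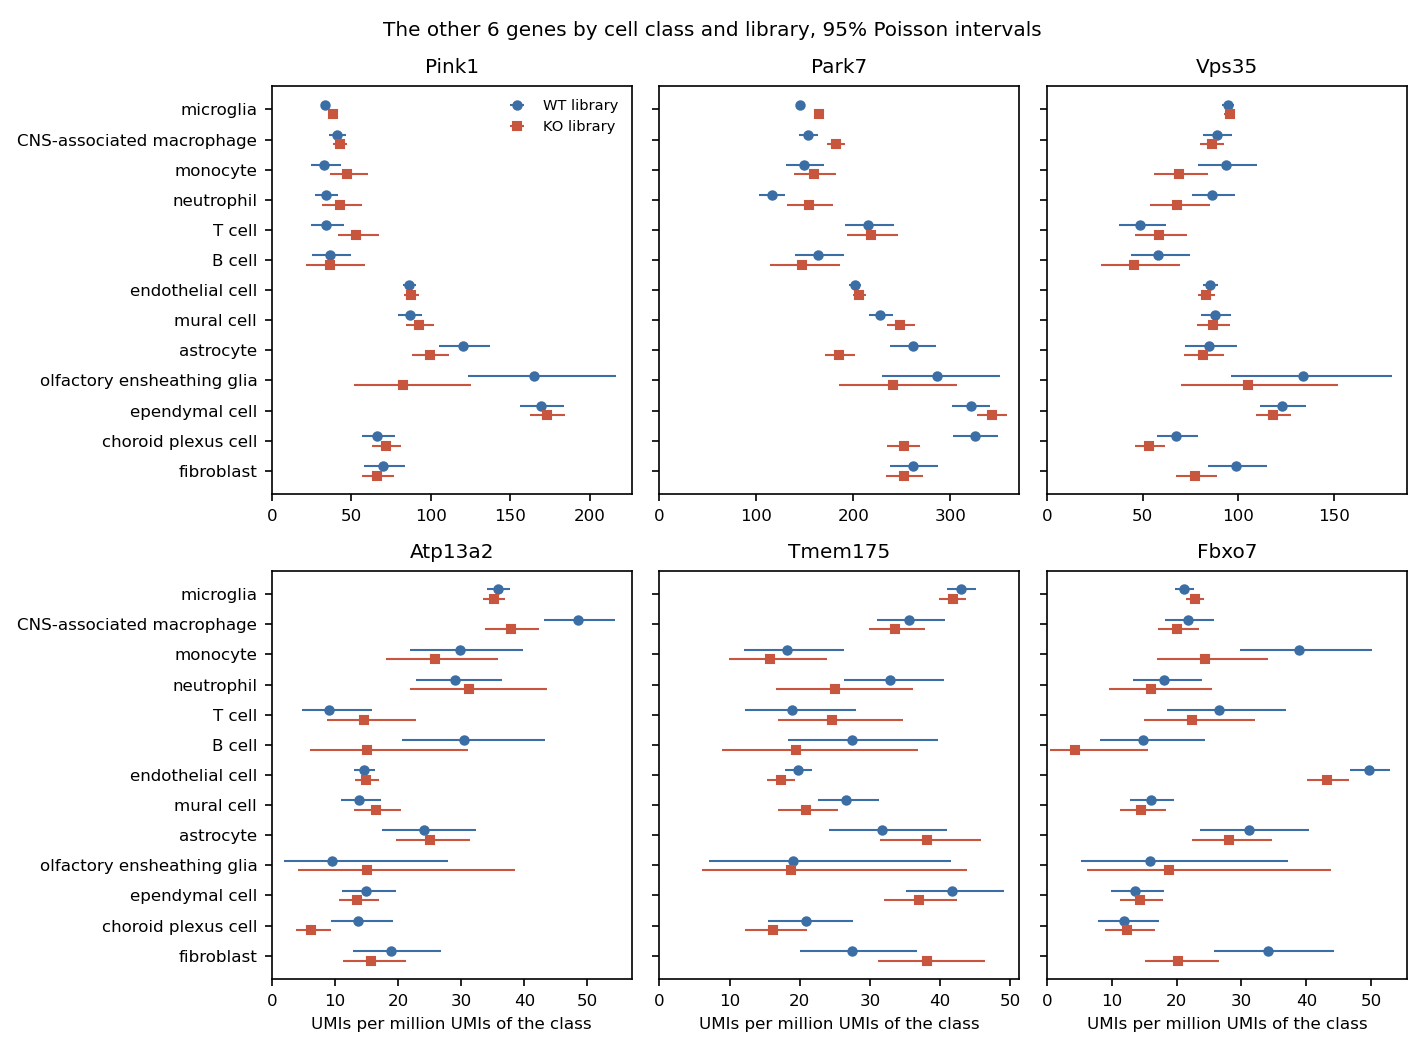
Levels of the other 6 genes in the 13 classes, in CPM, with axes from 0 and a scale per gene. Circles are the WT library, squares the KO library, and bars 95% Poisson intervals. In both libraries Pink1 is highest in ependymal cells, Atp13a2 in CNS-associated macrophages and Fbxo7 in endothelial cells.

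Among microglia, Atp13a2 was higher in the disease-associated state (led by Spp1, Lgals3, Lpl and Apoe; 237 and 168 cells) than in microglia without a named state. It stood at 44.6 against 34.8 CPM in WT and at 49.3 against 33.5 CPM in KO, ratios of 1.28 (1.10 to 1.49) and 1.47 (1.23 to 1.76). Park7 was lower in that state, with 135 against 152 CPM and 143 against 167 CPM, ratios of 0.888 (0.817 to 0.964) and 0.855 (0.771 to 0.946). Tmem175 had 34.2 against 47.9 CPM in WT, a ratio of 0.713 (0.604 to 0.838), and 37.8 against 42.8 CPM in KO, a ratio of 0.883 (0.719 to 1.07) whose interval includes 1. Beyond counting error, the ratio of Atp13a2 was above 1 and that of Park7 below 1 in each library. The microglia without a named state differed between the libraries, since 2 of their sub-clusters led by the heat shock gene Hspa1b held 946 and 677 cells in WT and 170 and 45 in KO, and the part of this in the ratios was not tested.

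In the chemokine-high state (led by Egr1, Fos and Junb; 677 and 302 cells) Tmem175 was lower in both libraries, at 35.8 and 33.5 CPM, ratios of 0.747 (0.656 to 0.849) and 0.783 (0.619 to 0.979). Park7 was also lower there, at 132 and 142 CPM, ratios of 0.865 (0.808 to 0.926) and 0.850 (0.760 to 0.947). Immediate-early genes lead this state, and genes of that kind also respond to tissue dissociation, and their part in these values was not tested. The interferon-responsive state had 89 cells in KO and 40 in WT, too few to compare there. In KO its Park7 ratio was 0.849 (0.726 to 0.988), and no other member's interval excluded 1. Lrrk2 had 0 UMIs in 237 disease-associated cells labelled WT, where 3 counts would be 0.600 CPM, and 3 UMIs in KO.

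**Figure D4:**
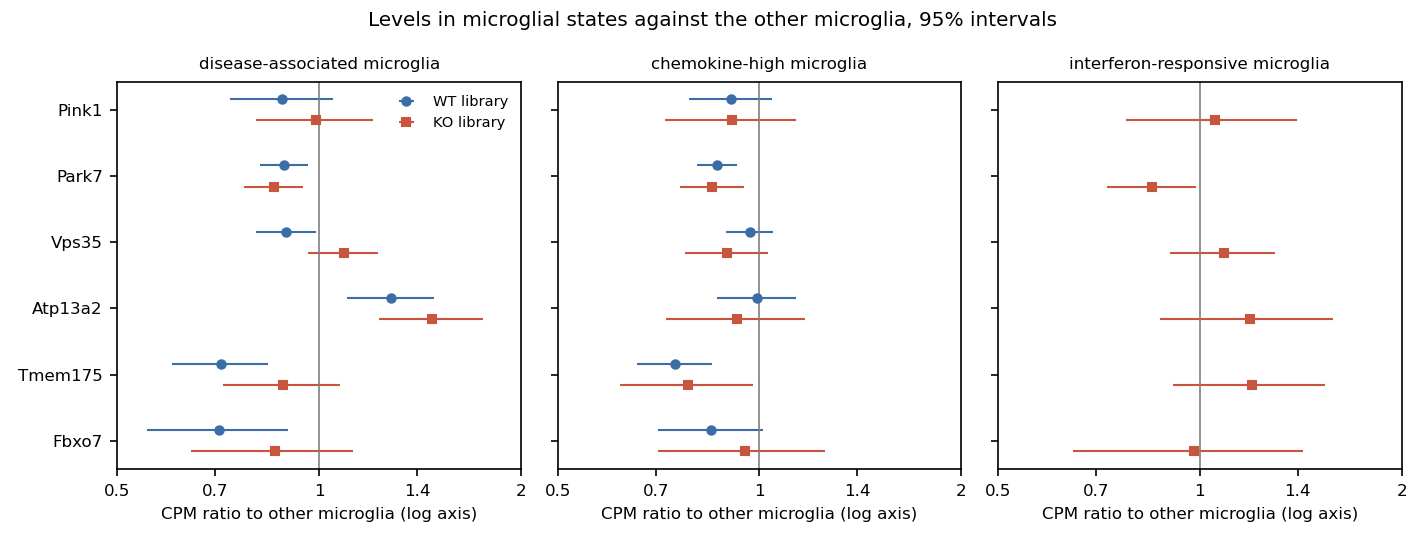
Ratio of CPM in 3 microglial states to CPM in microglia without a named state, within each library, on a log axis, for 6 genes (Lrrk2 has too few UMIs). Circles are WT, squares KO, bars 95% intervals for counting error, and the interferon-responsive state is drawn for KO only. Atp13a2 lies above 1 in the disease-associated state and Park7 below 1, in both libraries.

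The comparison of KO with WT asked whether any of the 7 genes stood at another level without CD200R1, and in microglia and CNS-associated macrophages none passed the fold used. A gene was called where its log2 ratio of CPM + 10 between the libraries passed 0.32 in either direction (a ratio of 5 to 4) with at least 20 UMIs over both. In microglia 0 of 7 members were called, where 2.39% of 16180 genes were. For Lrrk2 this count is empty, since at under 1 CPM the 10 CPM offset holds its log2 ratio at 0.04 while its plain ratio was 1.69 (0.940 to 3.13). In CNS-associated macrophages 0 of 7 were called, against 8.22% of 13110 genes. Pink1 was at 33.2 CPM in WT and 38.6 CPM in KO microglia, a ratio of 1.16 (1.08 to 1.247). Park7 was at 146 and 165 CPM in microglia, a ratio of 1.13 (1.09 to 1.17), and at 154 and 182 CPM in macrophages, a ratio of 1.19 (1.09 to 1.29). These intervals exclude 1 for counting error, but the spread between animals is unknown. Vps35 (94.6 and 95.4 CPM), Atp13a2 (35.8 and 35.2) and Tmem175 (43.0 and 41.8) in microglia had ratios whose intervals include 1.

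Atp13a2 in macrophages had a ratio of 0.780 (0.663 to 0.918) and a log2 ratio of -0.29 with the 10 CPM offset, short of the call. Without the sub-clusters led by markers of another class it was at 63.9 CPM in WT and 42.9 CPM in KO, a log2 ratio of -0.48, past the call. The macrophage class carried RNA of other cells, with all 12 microglial markers detected at a sum of 10355 CPM in WT and 12617 CPM in KO, and all 12 endothelial markers at 1427 and 617 CPM. Their part in the result was not tested beyond that alternative.

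Over all 13 classes 85 of 91 pairs of member and class had enough UMIs. Of these 7 were called higher in KO, 11 lower and 67 neither, while over all genes in the same classes 8.73% were called higher and 10.6% lower (19.3% in all). The share of member pairs called was therefore near that of all genes. None of the 7 members was called in endothelial cells (3.2% of genes called), mural cells (9.16%) or ependymal cells (9.43%) either. Lrrk2 in mural cells, at 26.1 and 19.0 CPM with a ratio of 0.725 (0.552 to 0.949), missed the call narrowly at a log2 ratio of -0.319, and it passed with a pseudocount of 1 CPM, without a cell filter and with the stricter one, among other settings. The calls lay in the classes where more genes in general were called, namely B cells (47% of genes called), olfactory ensheathing glia (50.6%), neutrophils (38.9%), T cells (31.3%), astrocytes (29.2%), monocytes (27.9%), fibroblasts (21.1%) and choroid plexus cells (20.4%).

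In B cells, where 17.1% of genes were called higher and 30% lower, Lrrk2 had the largest log2 difference of any member and class tested. It was at 177 CPM (180 UMIs in 151 cells) in WT and 51.8 CPM (24 UMIs in 77 cells) in KO, a ratio of 0.293 (0.183 to 0.450) and a log2 ratio of -1.60. Under every alternative that gave a value it stayed between -1.83 and -1.16. The make-up of the class differed between the libraries as well. Sub-cluster 0, with the highest Lrrk2, held 41.1% of B cells in WT and 15.6% in KO, and the Vpreb3 sub-cluster without Lrrk2 held 3.97% and 29.9%. Ighd was at 361 and 129 CPM, while Ighm was at 9145 and 15433 CPM. Within sub-cluster 0 the ratio was 0.760 (0.365 to 1.43), which includes 1, and within sub-cluster 1 it was 0.294 (0.136 to 0.569). Other members called lower in B cells, on few UMIs, were Atp13a2 (30.5 and 15.1 CPM, from 31 and 7 UMIs) and Tmem175 (27.5 and 19.4 CPM, from 28 and 9 UMIs), and their intervals include 1.

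In neutrophils, where 12.7% of genes were called higher and 26.2% lower, Lrrk2 was higher in KO, at 75.0 and 121 CPM, a ratio of 1.61 (1.28 to 2.02). The make-up of the class differed: the sub-cluster led by Wfdc17, Itga4 and Il1b held 37.1% of WT and 3.41% of KO cells, the Camp and Ltf one 8.43% and 20.5%, and the interferon-led one 1.12% and 30.7%. Within the Camp and Ltf sub-cluster the ratio was 0.753 (0.473 to 1.20). Within the one led by endothelial markers it was 0.711 (0.347 to 1.39). In the one led by microglial markers (55 and 29 cells) it was 1.62 (0.984 to 2.61). The Krt83 and Wfdc17 sub-clusters, with 3 KO cells each, had 0.272 (0.00671 to 1.60) and 1.32 (0.154 to 5.18). All of these intervals include 1. Camp was at 2711 and 5138 CPM in the class, and the part of this make-up in the Lrrk2 difference was tested only by leaving sub-clusters out. Without the interferon-led sub-cluster the levels were 75.2 and 82.9 CPM and the ratio was 1.10 (0.842 to 1.43), no longer called. Without the sub-clusters led by microglial or endothelial markers, but with the interferon-led one, the levels were 188 and 262 CPM and the ratio was 1.396 (1.05 to 1.85). Park7 in neutrophils was at 116 and 154 CPM, a ratio of 1.33 (1.09 to 1.61), and at 1.38 (1.13 to 1.68) without that sub-cluster. With the neutrophils led by microglial or endothelial markers left out, however, Park7 was at 94.6 and 110 CPM, and the ratio of 1.16 (0.753 to 1.77) included 1.

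In monocytes, where 13.4% of genes were called higher and 14.5% lower, Lrrk2 was lower in KO, at 51.2 and 27.3 CPM, a ratio of 0.532 (0.351 to 0.793). Within the Cd36 and Ace sub-cluster, of similar size in both libraries (62 and 56 cells), the ratio was 0.349 (0.174 to 0.654). Its cells were not alike in the libraries, since their monocyte markers summed to 1816 CPM in WT and 6030 CPM in KO. Vps35 (93.4 and 68.9 CPM) and Fbxo7 (38.9 and 24.4 CPM) were called lower too, and Pink1 (33.1 and 47.4 CPM) was called higher with an interval that includes 1. Without sub-clusters led by markers of another class, Fbxo7 was at 31.2 and 33.0 CPM and its call was gone. Of the 10 monocyte markers, 7 stood higher in KO, among them Ly6c2 (346 and 1617 CPM) and Ccr2 (97.9 and 162 CPM), and 3 lower, namely Vcan (47.4 and 36.6 CPM), Fn1 (490.4 and 262 CPM) and Ace (188 and 138 CPM). The part of this in these results was not tested.

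In T cells Pink1 was at 34.1 and 53.1 CPM, a ratio of 1.56 (1.05 to 2.32), and Atp13a2 at 9.10 and 14.6 CPM, a ratio of 1.61 (0.741 to 3.63) whose direction turned when cells were thinned to equal depth. Microglial marker RNA in this class was higher in KO, at 5253 CPM against 3034 CPM for all 12 markers, and its part was not tested. In olfactory ensheathing glia Pink1 was at 165 and 82.7 CPM, a ratio of 0.5002 (0.289 to 0.838), from 52 and 22 UMIs. In fibroblasts Fbxo7 was at 34.1 and 20.3 CPM, a ratio of 0.594 (0.400 to 0.881), and Tmem175 at 27.4 and 38.2 CPM, a ratio of 1.39 (0.972 to 2.03). In choroid plexus cells Park7 was at 326 and 252 CPM, a ratio of 0.773 (0.701 to 0.854), in a class whose median over all genes was also below 0 (-0.11). With counts scaled to that median the log2 ratio of Park7 was -0.20, short of the call.

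Calls in astrocytes and choroid plexus cells also turned direction under an alternative. Park7 in astrocytes was at 261 and 186 CPM, a ratio of 0.710 (0.627 to 0.804), but with a stricter filter on cells the log2 ratio was 0.23 and with only cells led by astrocyte markers it was 0.24. In choroid plexus cells Atp13a2 (13.6 and 6.18 CPM) and Lrrk2 (15.3 and 23.0 CPM) turned direction when no filter on cells was used.

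**Figure D5:**
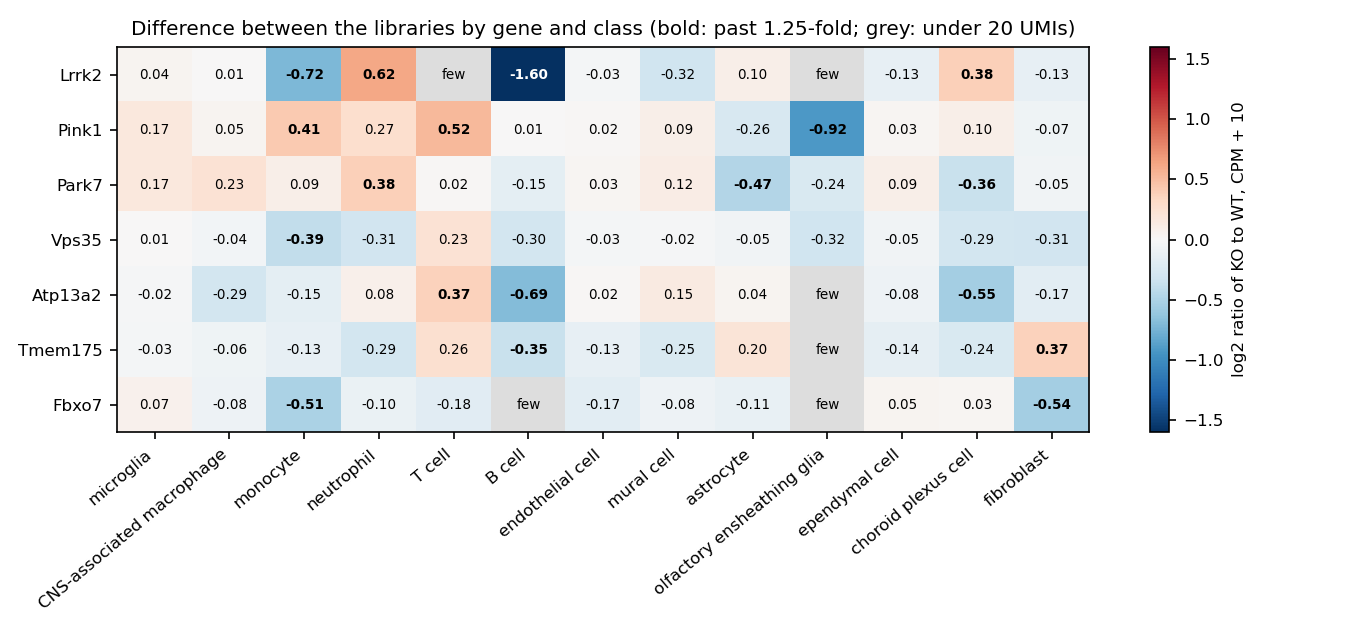
Log2 ratio of CPM + 10 between the KO and WT libraries for 7 genes in 13 classes. Red is higher in KO, blue lower, bold values pass 0.32 in either direction, and grey squares marked few have under 20 UMIs. The microglia, macrophage, endothelial, mural and ependymal columns hold no bold value, and the darkest square is Lrrk2 in B cells at -1.60.

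The pathways around these genes were read from 7 lists of partner genes in the same way. The lists hold LRRK2 substrates and partners (15 genes tested in microglia), mitophagy genes (22), antioxidant genes (20), retromer partners (21), lysosomal channels and related pumps (13), partners of Fbxo7 (14) and other Parkinson-linked genes (16). In microglia 0 partner genes were called higher and 3 lower, against 1.14% and 1.24% of all genes. They were Rilpl2, an effector that binds Rab GTPases phosphorylated by LRRK2 (37.5 and 24.1 CPM, log2 ratio -0.48), Sqstm1, the p62 autophagy receptor (270 and 212 CPM, -0.33), and Hmox1, the heme oxygenase of the oxidative stress response (39.5 and 28.8 CPM, -0.35). The Hspa1b-led sub-clusters described above held more of the microglia in WT (946 and 677 cells) than in KO (170 and 45), and the part of this in these values was not tested. The 3 genes belong to different lists, and the list medians in microglia lay between -0.02 and 0.05 beside a median of 0.00 over all genes. Among the Rab substrates of LRRK2, Rab10 was at 175 and 186 CPM and Rab8b at 260 and 251 CPM. In the retromer list Snx6 had the highest ratio (119 and 139 CPM, 0.22) and Sort1 the lowest (216 and 181 CPM, -0.24).

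In CNS-associated macrophages 0 partner genes were called higher and 3 lower, against 2.53% and 5.68% of all genes. Rilpl2 (47.8 and 30.1 CPM, -0.53) and Hmox1 (99.8 and 58.5 CPM, -0.68) were lower as in microglia, and Galc, a lysosomal galactosylceramidase, was lower as well (67.0 and 49.0 CPM, -0.39). The macrophage class holds sub-clusters led by microglial markers, with 84 and 68 cells in WT and 134 and 136 in KO. The likeness to microglia is therefore not an independent repeat, and the part of microglial RNA in it was not tested. Keap1, which holds the antioxidant regulator Nrf2 in check, was at 27.3 and 34.0 CPM (0.24), not called. List medians lay between -0.03 and 0.03. In the smaller immune classes more partner genes were called, as were more genes in general, and the following lists were picked after their values were seen. In neutrophils 26.2% of all genes were called lower and 12.7% higher. There 8 of 15 LRRK2 partners were called lower and 0 higher (median -0.38, against -0.09 over all genes). Retromer partners, with 7 of 21 called lower, were near the share of all genes, and 7 of 14 partners of Fbxo7 were called lower. Of 19 antioxidant genes, 7 were called higher and 3 lower. In B cells (30% of all genes lower, 17.1% higher) 10 of 18 retromer partners were called lower and 2 higher (median -0.33, against -0.10). In monocytes (14.5% lower, 13.4% higher) 6 of 15 LRRK2 partners were called lower and 1 higher (median -0.23, against -0.01). Other lists and classes went the other way. In T cells (31.3% of all genes called, both directions together) 7 of 12 other Parkinson-linked genes were called higher and 0 lower. Retromer partners there had 7 of 21 called higher and 1 lower. In astrocytes (29.2% of all genes called) 7 of 15 LRRK2 partners were called higher and 1 lower.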

How the data were processed

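Expression was measured by droplet single-cell RNA-seq in 2 libraries. The deposited matrices hold UMI counts per gene and barcode. Cell Ranger 7.0.1, STAR, Seurat 3.1.1 and the build GRCm38 (mm10) are named per the submitters' processing notes. Whether intronic reads were counted is not given in the sources used here.

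From these counts, cells with at least 300 genes, 500 UMIs and at most 10% mitochondrial UMIs were kept and doublets called with Scrublet were left out (Python 3.11.15, scanpy 1.11.5, numpy 2.4.6, scipy 1.17.1, matplotlib 3.10.9). Both libraries were clustered together without the 7 genes, partner lists and Cd200r1 (2000 variable genes, 30 components, 15 neighbours, resolution 1). A cluster was named from at least 3 markers of a class found in 25% of its cells at a log2 fold of 1, and stayed unnamed where a second class had 0.5 of that number. The rule that a cluster of low UMI count needs 4 markers, and the sub-clusters, were set after the data were seen. UMIs were summed per library and class. Intervals are exact Poisson (levels), exact Clopper-Pearson (shares) and exact conditional (ratios), all 95%. Log2 ratios use CPM with a pseudocount of 10. The fold call and the ratio interval were tested on counts simulated for microglia and T cells, without spread between cells or animals. The clustering and naming of cells were not tested in this way. Likeness ranks genes with at least 500 UMIs. All 7 members are named, with the 3 genes most like each, partner genes past the fold and those at the ends of their lists, and leading genes of clusters. The members and lists were chosen with earlier results of these data known. With 1 library per genotype there is no test between genotypes. The 13 alternatives changed pseudocount, cell filter, doublets, resolution, marker purity, totals, scaling, thinning and minimum UMIs, and 2 more were chosen after seeing the data. Oligodendrocytes and platelets had under 50 cells in 1 library and were not compared.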

Additional observations from a re-analysis of the deposited data

Results flagged for a closer look

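Lrrk2 had log2 ratios of KO over WT in opposite directions in immune classes, 0.62 in neutrophils against -0.72 in monocytes and -1.60 in B cells. Pink1 was at 0.52 in T cells and -0.92 in olfactory ensheathing glia. Park7 was at 0.38 in neutrophils, -0.47 in astrocytes and -0.36 in choroid plexus cells. These pairs stood out because 1 class was past a log2 ratio of 0.32 upward and the other downward, each with a ratio interval that excludes 1. The direction of Park7 in astrocytes turned under alternatives given above. Lrrk2 in neutrophils was no longer called without the interferon-led sub-cluster, with a ratio of 1.10 (0.842 to 1.43). Park7 in neutrophils had a ratio of 1.16 (0.753 to 1.77) without those led by microglial or endothelial markers. With 1 library per genotype the difference was not tested for any of these pairs.

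Fbxo7 stood above its highest compared class in 3 clusters that no comparison used. Cluster 11, with endothelial markers, had 101 CPM in WT and 75.4 CPM in KO. Cluster 22, with endothelial and mural markers, had 75.5 and 58.5 CPM. Oligodendrocytes had 151 CPM (103 to 214, from 32 UMIs) and 79.2 CPM (46.9 to 125, from 18 UMIs).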

How the results depend on the processing

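No paired analysis was possible because each genotype has 1 library. In microglia the count of members past the fold used was 0 in each direction under all alternatives run, which says nothing of Lrrk2, whose level is under the offsets (log2 ratio 0.29 with 1 CPM). Over all classes, 7 pairs were higher and 11 lower. The higher count was 1 with a pseudocount of 50 CPM and 3 with only cells led by their own class markers. The lower count was 21 with a pseudocount of 1 CPM, 4 with 50 CPM, 19 with the stricter cell filter (1000 UMIs, 5% mitochondrial) and 6 with a minimum of 100 UMIs. In CNS-associated macrophages 1 member was lower, not 0, with a pseudocount of 1 CPM, at resolution 2, with own-marker cells and without sub-clusters led by another class. The last setting, like leaving out the interferon-led neutrophils, was chosen after seeing the data. Partner genes lower in microglia numbered 0, not 3, with 50 CPM. In macrophages the higher partner genes numbered 2 with 1 CPM, 1 at resolution 2, 9 with own-marker cells and 3 without those sub-clusters, against 0. The lower ones numbered 7, 6, 13 and 9 in that order, 1 with 50 CPM and 5 with cells thinned to 1000 UMIs, against 3. Among pairs past the fold under the main settings, the direction turned for Lrrk2 (-0.17) and Atp13a2 (0.017) in choroid plexus cells without a cell filter. It also turned for Park7 in astrocytes with the stricter filter (0.23) and with own-marker cells (0.24), for Atp13a2 in thinned T cells (-0.24), and for Fbxo7 in monocytes without those sub-clusters (0.063). Pairs not past the fold turned too, such as Pink1 in neutrophils (-0.50) and Atp13a2 in monocytes (0.50) without those sub-clusters. The cause was not tested. Of the single-gene log2 ratios under the alternatives, 1057 stayed within their interval and 33 moved outside it, beside the 6 listed turns of pairs past the fold. Lrrk2 in neutrophils was at 0.23 with own-marker cells. Olfactory ensheathing glia gave no value with the stricter filter, at resolution 0.5 or thinned, and monocytes none with own-marker cells. Of 7 settings that changed the cells or clusters, the highest class in WT differed from that reported in 4 each for Tmem175 and Vps35, 2 for Park7 and 1 for Pink1, and in KO in 1 for Tmem175. For Vps35 the reported class was olfactory ensheathing glia. Where that class gave no value (stricter filter, resolution 0.5 and thinned cells), another class had to be the highest. Few UMIs limit B cells, T cells and olfactory ensheathing glia most.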
